A study of Mus musculus with 721 samples.

Results

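Out of a single-cell count table, 9 rows are described here, those of Cdh1, Cdh2, Cdh11, Epcam, Snai1, Snai2, Zeb1, Zeb2 and Vim, the genes of the cadherin switch and of the epithelial to mesenchymal transition. They were chosen by symbol, each symbol had 1 row, and the table holds 24483 rows, all on the autosomes. It covers 721 cells of wild-type C57Bl/6Babr mouse embryos, taken on embryonic day (E) 3.5 (99 cells), E4.5, E5.5 and E6.5 (250 cells). No group was treated. The trophectoderm was lysed with antiserum and pipetted away at E3.5 and E4.5, the epiblast and the visceral endoderm were pulled apart at E5.5, and at E6.5 embryos staged by eye as early streak were freed of extra-embryonic tissue before dissociation.

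E-cadherin (Cdh1) joins neighbouring epithelial cells, and Epcam is a second adhesion molecule of epithelia. At the primitive streak, epiblast cells that express the T-box factor T (Brachyury) leave the epithelium to form mesoderm and definitive endoderm, and Snai1 and Zeb2 are zinc-finger repressors known for binding E-box motifs in the Cdh1 promoter during that step. N-cadherin (Cdh2), the mesenchymal cadherin Cdh11 and the intermediate filament vimentin (Vim) are the classical gains of the transition, and Snai2 and Zeb1 are the paralogues of Snai1 and Zeb2.

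Cells were assigned to 8 classes. All 99 cells of E3.5 were taken as inner cell mass (ICM). Cells of later stages were clustered without the 9 genes, and each cluster was called endoderm-like or epiblast-like by the larger mean of 21 endoderm or 12 epiblast markers. At E6.5, epiblast-like cells with T at 10 counts per 1000000 counts (CPM) or more were called T-positive. This gave 23 epiblast-like and 82 primitive endoderm (PrE)-like cells at E4.5, and 8 endoderm-like cells at E5.5 with all others of that stage epiblast-like. At E6.5, 54 cells were T-positive, 38 endoderm-like and the rest T-negative epiblast-like. Among the T-positive cells T ran from 11.6 CPM, just inside the limit, to 299 CPM with a median of 66.2 CPM. The highest T-negative cell had 9.43 CPM, and 13 T-negative cells had any T count.

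The embryo was the replicate. Titles name 37 embryos, 4 of them with no plate name, and 2 of those 4 are titled E6.75 although their stage is given as E6.5. The titles do not say whether embryos without a plate name, or the 9 E3.5 cells without an embryo number, belong to animals named elsewhere, so n may count an animal more than once. Of the former, those titled E6.5 were merged with the embryos of the same number on P1, and the 2 titled E6.75 were not. Neither that merging nor leaving out the 9 E3.5 cells changed a call among the 9 genes. Within an embryo, the raw counts of all cells of 1 class were added up if at least 3 such cells were present, so a deeper cell weighs more in its sum. The sums held 1165967 to 49484352 counts. That left 10 sums for the ICM, 5 for each class at E4.5, 8 for the E5.5 epiblast, 1 for the E5.5 endoderm (5 cells, all titled as visceral endoderm), 13 for the T-negative epiblast, 4 for T-positive cells and 7 for the E6.5 endoderm. The 21 endoderm markers had named the clusters, so their sums describe the classes and are no check of them. They summed to 12290 to 33900 CPM in the endoderm sums and to 444 to 3413 CPM in the ICM and the epiblast of E4.5 and E5.5. The E6.5 epiblast reached higher, from 655 to 9194 CPM. In sums like these, fewer cells that express a gene cannot be told apart from less RNA per cell. Each stage came from its own embryos. Plate names such as P1 recur between stages and whether they name 1 plate is not stated, so stage cannot be told apart from the day and plate of collection.

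Levels between genes were compared per kilobase of exon. On that scale Epcam was the highest of the 9 in every class, from a mean of 41.3 CPM per kb in the E5.5 endoderm sum to 309 CPM per kb in the ICM. Cdh1 was second in every class, with a mean of 26.3 CPM per kb in the E4.5 epiblast and 51.8 CPM per kb in the E6.5 T-negative epiblast. Cdh2 stayed below Cdh1 in the mean of every class, and came closest in the E5.5 endoderm sum with 17.7 CPM per kb against 22.7 CPM per kb of Cdh1. Snai1 reached a mean of 19.4 CPM per kb in the ICM and 19.7 CPM per kb in T-positive cells. Cdh11, Snai2, Zeb1 and Zeb2 were under 1.5 CPM per kb in the mean of every class.

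**Figure D1:**
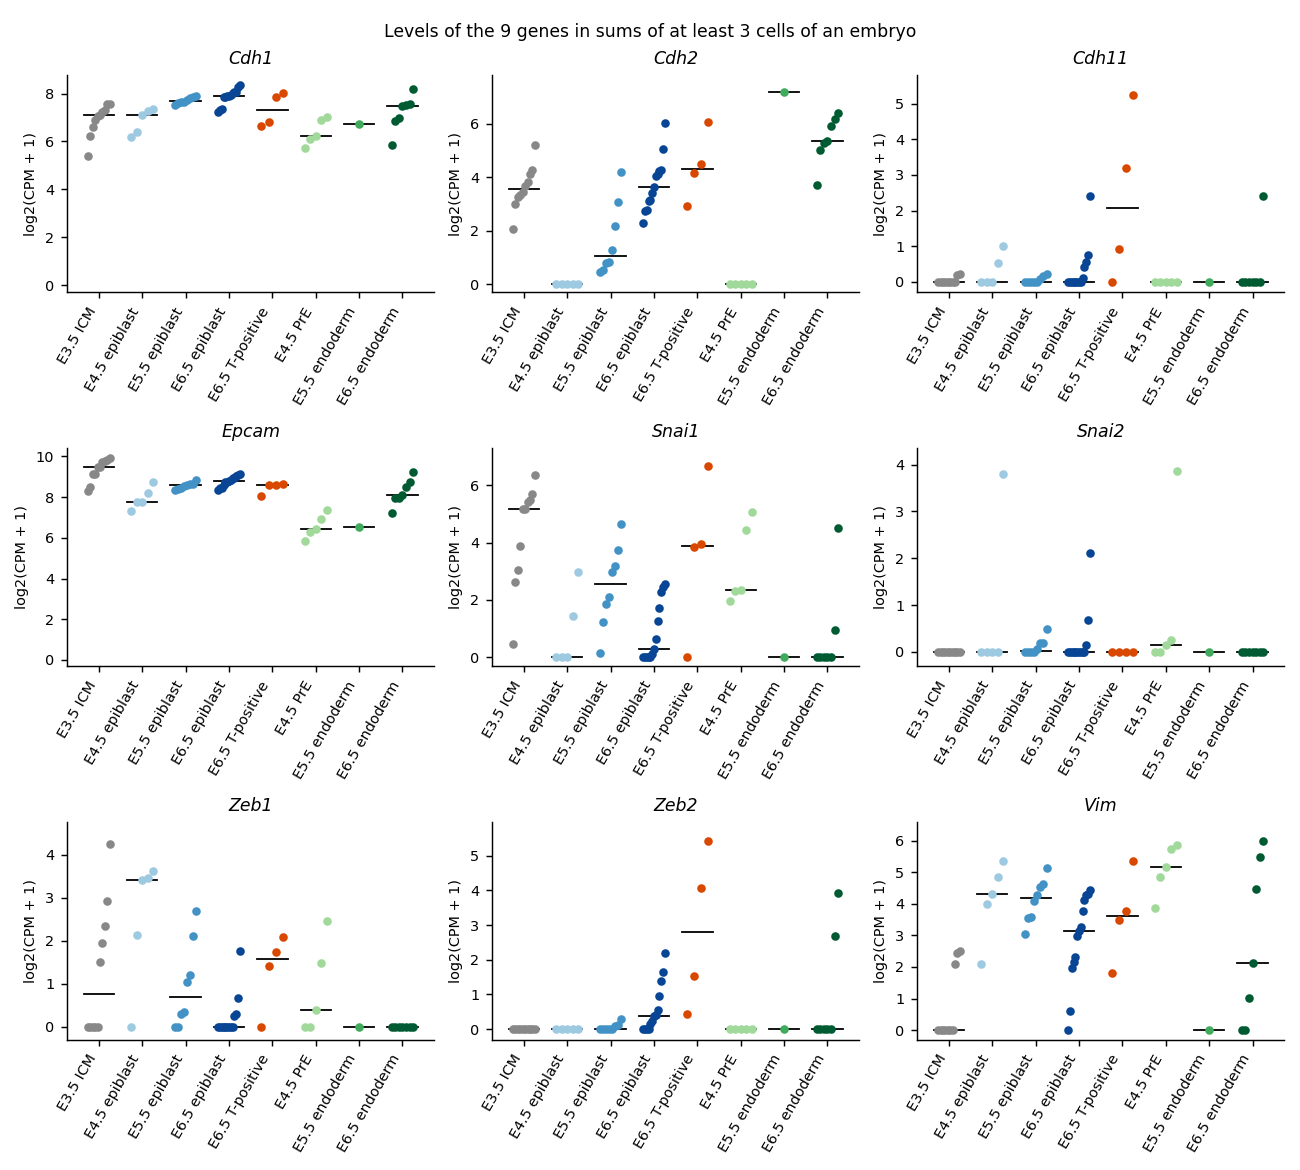
Levels of the 9 genes as log2(CPM + 1), 1 point per sum of at least 3 cells of an embryo and 1 black bar per class for the median. Cdh2 lies at 0 in the E4.5 epiblast and E4.5 PrE and above 0 in every sum of the ICM, the E5.5 and E6.5 epiblast and the E6.5 endoderm, whereas Cdh1 and Epcam are above 0 in every sum.

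The step from the ICM to the E4.5 epiblast asked what the adhesion genes do as the epiblast is set apart. Cdh2 was lost, Snai1 and Epcam fell, Vim rose, and Cdh1 was not called. Genes were called at an adjusted p of at most 0.05 with a log2 fold change over 1 in size. By that rule 12.5% of the 13229 genes tested rose and 8.99% fell, and of the 6 genes of the 9 that passed the filter on low counts, 1 rose and 3 fell. Over these 6 genes the median log2 fold change was -0.76, beside 0 over all genes tested.

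Cdh2 ran from 3.16 CPM in the lowest of the 10 ICM sums through a median of 10.9 CPM to 35.7 CPM in the highest. No Cdh2 count was found in any of the 5 E4.5 epiblast sums, in 15434297 counts. The groups did not overlap, and the ICM mean of 13.3 ± 9.004 CPM (SD, n = 10) was at least 69.9-fold higher than 3 counts over the whole E4.5 group would give (adjusted p = 2.2e-05, edgeR quasi-likelihood F test, Benjamini-Hochberg). Markers of the trophectoderm moved the same way. The 7 markers summed to a median of 647 CPM in the ICM (162.4 to 1013), with 6 of them above 0, and of 246.4 CPM in the E4.5 epiblast (183.3 to 438.9), with 5 above 0. Cdx2, a defining factor, was at 16.7 ± 37.2 CPM (SD, n = 10) in the ICM and at 0 at E4.5, and their part in the Cdh2 level was not tested.

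Epcam was 313 CPM in the lowest ICM sum, 714 CPM in the median and 959 CPM in the highest. In E4.5 epiblast it was 426.3 and 217.4 CPM in P1 embryos 1 and 2, and 214.1, 159.7 and 294.8 CPM in P2 embryos 3, 4 and 5. Of the 5 E4.5 sums, 4 lay below every ICM sum, and the log2 fold change was -1.40 ± 0.23 (SE; adjusted p = 1.9e-05, edgeR quasi-likelihood F test, Benjamini-Hochberg). With sums of at least 5 cells it was -0.85, no longer past the limit of 1.

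Snai1 ran from 0.368 through a median of 35.2 to 80.4 CPM in the ICM. At E4.5 it was 1.69 CPM in P1 embryo 1 and 6.80 CPM in P2 embryo 3, and had no count in the other 3 embryos. The log2 fold change was -4.20 ± 1.5 (SE; adjusted p = 0.037, edgeR quasi-likelihood F test, Benjamini-Hochberg). The call rested on each of 4 E4.5 embryos: without P1 embryo 1, P1 embryo 2, P2 embryo 4 or P2 embryo 5 the adjusted p of this test was 0.072, 0.083, 0.081 and 0.084, and without the wells labelled as double it was 0.079.

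Vim had no count in 7 of the 10 ICM sums and reached 4.64 CPM in the highest. In the same order of E4.5 embryos it was 18.99, 3.23, 40.1, 27.7 and 14.9 CPM. Only P1 embryo 2 fell inside the ICM range, and the log2 fold change was 3.99 ± 1.04 (SE; adjusted p = 0.0041, edgeR quasi-likelihood F test, Benjamini-Hochberg).

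Cdh1 was 41.4 to 189.6 CPM over the ICM sums with a median of 135.02 CPM, and 135.06, 161.7, 72, 151.6 and 82.2 CPM in the 5 E4.5 embryos. Every E4.5 value lay inside the ICM range, and the log2 fold change was -0.12 ± 0.26 (SE; adjusted p = 0.81, edgeR quasi-likelihood F test, Benjamini-Hochberg). Zeb1 had a count in 5 of 10 ICM sums and in 4 of 5 E4.5 sums, with means of 3.34 ± 5.66 CPM (SD, n = 10) and 6.86 ± 4.91 CPM (SD, n = 5), and did not pass the test.

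Other junction genes also changed between these stages. Of 23 epithelial genes tested, 4 rose and 3 fell. Grhl2, a transcription factor of epithelia, rose from 22.3 ± 23.3 CPM (SD, n = 10) to 131.9 ± 50.6 CPM (SD, n = 5), and the claudin Cldn6 rose from 19.4 ± 30.5 to 100.6 ± 45.9 CPM. The keratin Krt8 fell at least 1009-fold to no count, and the claudin Cldn7 fell from 339 ± 292 to 24.4 ± 26.1 CPM. The splicing factor Esrp2 fell from 21.6 ± 14.6 to 3.92 ± 3.11 CPM. Rab25, a small GTPase, had no count in the ICM and 3.06 ± 6.16 CPM at E4.5, at least 60.1-fold more, but no count in 3 of 5 E4.5 embryos. The median log2 fold change of the 23 was 0.62. Of the 17 regulators, motility and matrix genes tested, 4 rose and 0 fell, with a median of -0.21. Lef1, a nuclear partner of beta-catenin, rose from no count to 97.2 ± 43.3 CPM, at least 1909-fold. The matrix protease Mmp14 rose from no count to 9.21 ± 12.3 CPM, with no count in 2 of 5 E4.5 embryos. The hyaluronan synthase Has2 rose at least 21.4-fold to 1.09 ± 2.43 CPM, with a count in 1 of 5 E4.5 embryos. Of the 6 cadherins and catenins tested, Cdh4 (R-cadherin) rose, 0 fell, and the median log2 fold change was 0.89. Cdh4 went from 0.520 ± 0.925 to 14.1 ± 18.3 CPM, with no count in 2 of 5 E4.5 embryos.

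From E4.5 to E5.5 the epiblast becomes a polarised epithelium around a cavity. In this step Cdh2 returned at a low level, and Cdh1 was not called. In this comparison 3.53% of the genes tested rose and 2.61% fell. Of the 6 of the 9 genes tested, 1 rose and 0 fell, with a median log2 fold change of 0.66 beside 0.16 over all genes.

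Cdh2 had counts in all 8 E5.5 sums, from 0.392 CPM through a median of 1.11 CPM to 17.2 CPM, against none in the 5 E4.5 sums. The groups did not overlap. The E5.5 mean of 4.02 ± 5.87 CPM (SD, n = 8) was at least 21.1-fold above 3 counts over the E4.5 group (adjusted p = 0.0011, edgeR quasi-likelihood F test, Benjamini-Hochberg). Much of that mean came from embryo 3 of plates P7.P4.P5, the highest, and the next embryo was at 7.50 CPM.

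Cdh1 was 183.1 CPM in the lowest E5.5 sum, 204.2 CPM in the median and 235.7 CPM in the highest, and 72 to 161.7 CPM at E4.5. Although the groups did not overlap, the log2 fold change of 0.80 ± 0.27 (SE) did not pass the test (adjusted p = 0.068, edgeR quasi-likelihood F test, Benjamini-Hochberg; 0.0089 to 0.20 over 15 alternative settings, with no log2 fold change above 0.93). How many of all genes tested also had groups without overlap was not counted. Epcam moved in the same direction as Cdh1 by 0.52 ± 0.23 (SE), from 262.5 ± 103.4 CPM (SD, n = 5) to 377 ± 39.6 CPM (SD, n = 8), and was not called either. Snai1 went from 1.70 ± 2.94 to 7.34 ± 7.84 CPM, Zeb1 from 6.86 ± 4.91 to 1.45 ± 1.97 CPM and Vim from 21 ± 13.8 to 18 ± 8.74 CPM, all without passing the test.

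Among the lists, 2 of 23 epithelial genes rose and 0 fell, with a median log2 fold change of 0.85. Krt8 rose from no count to 37.3 ± 20.7 CPM (SD, n = 8), and Cldn7 from 24.4 ± 26.1 to 116.3 ± 21.5 CPM. Both had fallen in the step before, which shares the E4.5 sums with this one. Of 17 regulators, motility and matrix genes, 2 rose and 1 fell, with a median of -0.018. The growth factor Fgf8 rose at least 46.5-fold to 8.84 ± 5.17 CPM and the matrix protease Mmp2 from 0.476 ± 1.06 to 27.6 ± 11.3 CPM, while fibronectin (Fn1) fell from 256.6 ± 103.4 to 37.5 ± 19.7 CPM. Of 6 cadherins and catenins 0 were called, and their median was -0.78.

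From E5.5 to the T-negative epiblast of E6.5, 0 of the 6 genes tested of the 9 were called by edgeR and 1, Cdh2, by DESeq2. At an unadjusted p under 0.05 there were 2, Cdh2 and Snai1, beside 3155 of all 13229 genes tested. By the call rule 4.04% of all genes tested rose and 4.59% fell. The median log2 fold change of the 6 was -0.37, beside 0.032 over all genes.

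Cdh2 had the lowest adjusted p of the 9. It was 3.90 CPM in the lowest of the 13 E6.5 sums, 11.6 CPM in the median and 63.8 CPM in the highest, in P2 embryo 6. There 2 of 5 cells had a Cdh2 count, the higher at 261.7 CPM. Of the 13, 4 lay above the E5.5 range and 9 inside it. The log2 fold change was 2.07 ± 0.73 (SE; adjusted p = 0.064, edgeR quasi-likelihood F test, Benjamini-Hochberg). It was called with DESeq2 (adjusted p = 0.0079), with sums of at least 5 cells (adjusted p = 0.046) and with the T-positive cells included (adjusted p = 0.038), within a range of 0.0079 to 0.64 over 15 alternatives. Endoderm markers also differed between these stages: the 21 markers summed to 444 to 719 CPM at E5.5, with 20 of them above 0, and to 655 to 9194 CPM at E6.5, with all 21 above 0 and with the visceral endoderm gene Ttr at 4.36 ± 7.79 CPM (SD, n = 8) and 859 ± 1066 CPM (SD, n = 13). Their part in the Cdh2 level was not tested.

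Cdh1 was 147.7 CPM in the lowest E6.5 sum, 238.7 CPM in the median and 324 CPM in the highest, with a log2 fold change of 0.20 ± 0.21 (SE). Its E6.5 embryos spread to both sides of the E5.5 range, 8 above and 3 below. Epcam had a log2 fold change of 0.26 ± 0.18 (SE), from 377 ± 39.6 CPM (SD, n = 8) to 445 ± 74.9 CPM (SD, n = 13). Snai1 was 0.116 to 24.1 CPM at E5.5 and 0 to 4.82 CPM at E6.5, with no count in 5 of the 13 sums. Its log2 fold change of -2.35 ± 0.96 (SE) did not pass the test (adjusted p = 0.11, edgeR quasi-likelihood F test, Benjamini-Hochberg). Zeb1 had no count in 9 of 13 E6.5 sums and Vim no count in 1, with means of 0.263 ± 0.667 CPM and 9.35 ± 7.31 CPM (SD, n = 13). Both were lower in the mean than at E5.5 and neither passed the test. Zeb2 had a count in 3 of 8 sums at E5.5 and in 9 of 13 at E6.5, at no more than 3.61 CPM, and was too low to be tested.

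In the same step Eomes, a T-box factor of the streak and of definitive endoderm, rose from 11.5 ± 6.73 CPM (SD, n = 8) to 109.7 ± 69.9 CPM (SD, n = 13), and Fgf8 from 8.84 ± 5.17 to 71.6 ± 57.4 CPM. The integrin subunit Itgb1 rose from 45.8 ± 11.2 to 96.4 ± 44.3 CPM. These were among 4 of 17 regulators, motility and matrix genes that rose, with 0 that fell and a median of 0.29. P-cadherin (Cdh3) fell from 15.6 ± 9.20 to 2.35 ± 2.82 CPM and plakoglobin (Jup) from 49.1 ± 22.5 to 11.1 ± 11.3 CPM, 2 of 6 cadherins and catenins, with 0 that rose and a median of -0.044. Of 23 epithelial genes, the claudin Cldn4 fell, from 162.2 ± 45.6 to 13.5 ± 14.7 CPM, 0 rose, and the median was -0.018.

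**Figure D2:**
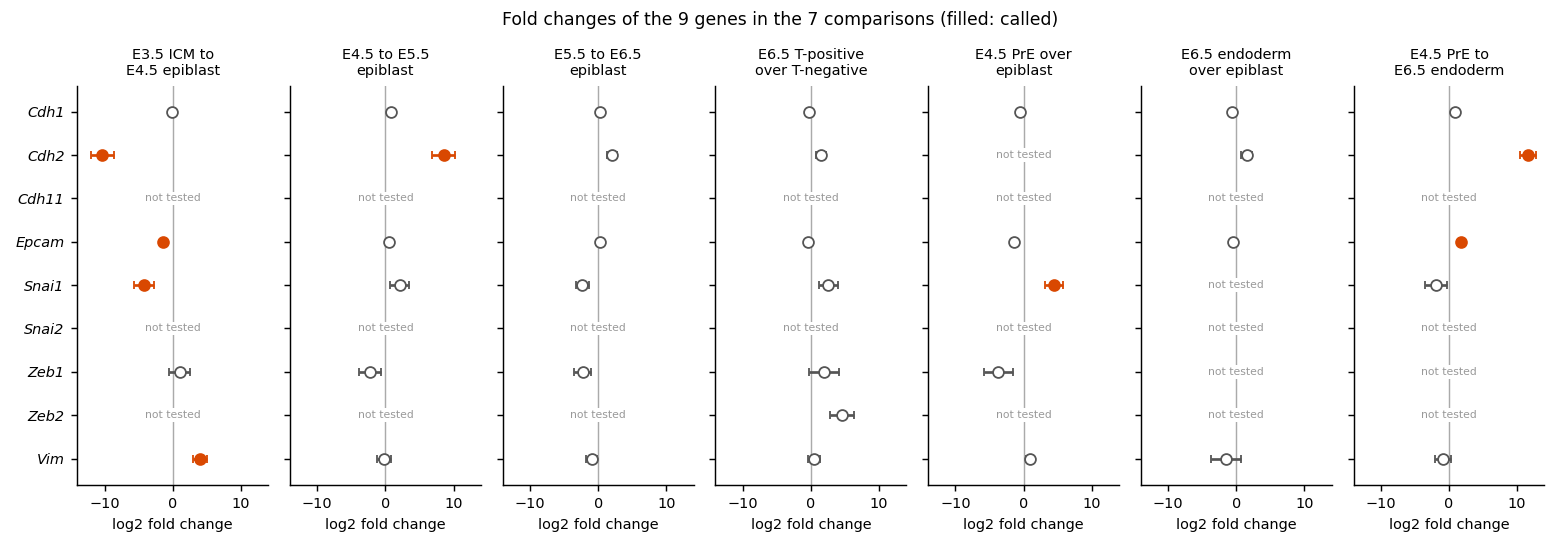
Log2 fold change (x axis) with its standard error for each of the 9 genes in the 7 comparisons, filled where the gene was called. Cdh2 is filled in 3 panels, and each of those compares with a group that had no Cdh2 count, so the size of those fitted values is not a measurement.

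The comparison closest to the cadherin switch set T-positive against T-negative epiblast cells of the same E6.5 embryo. In 4 embryos at least 3 cells of both kinds were present, with 52 T-positive and 78 T-negative cells. Snai1, Zeb2, Cdh2 and Cdh11 were higher in T-positive cells of some of these embryos. Cdh1 and Epcam were lower by less than 0.4 on the log2 scale of the fit. None of the 7 genes tested was called. In this comparison 0.00898% of 11139 genes rose, which is 1 gene, and 0% fell, with 327 genes at an unadjusted p under 0.05 and 18 genes called by DESeq2, none of them among the 9. The median log2 fold change of the 7 was 1.52, beside -0.047 over all genes.

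Cdh1 was 159.3 CPM in T-negative and 109.9 CPM in T-positive cells of P1 embryo 3, and 160.7 and 99.6 CPM in embryo 2 without a plate name. In E6.75 embryo 1 it was 245.6 CPM in T-negative cells and lower, 227.999 CPM, in T-positive cells, and in E6.75 embryo 2 it was 227.5 and 260.98 CPM. Cdh1 was thus lower in T-positive cells in 3 of 4 embryos, with a log2 fold change of -0.27 ± 0.23 (SE; adjusted p = 0.999, edgeR quasi-likelihood F test, Benjamini-Hochberg). Epcam was lower in 4 of 4 embryos, with 405, 269, 381 and 388 CPM in T-positive cells against 432, 485, 428 and 492 CPM, and a log2 fold change of -0.35 ± 0.20 (SE).

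Cdh2 was 21.3, 65, 16.8 and 6.52 CPM in the T-positive cells of the same embryos, in the same order. In their T-negative cells it was 5.71, 7.64, 5.77 and 11.6 CPM. It was higher in 3 of 4 embryos, and the log2 fold change was 1.52 ± 0.77 (SE). The largest difference was that of embryo 2 without a plate name, and without it the log2 fold change was 0.97. Cdh11 was too low to be tested: it was 8.19, 37.1, 0.892 and 0 CPM in T-positive cells and 0, 0.0779, 0.344 and 4.31 CPM in T-negative cells.

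Zeb2 gave the lowest p of the 9 genes. It was 41.7, 15.8, 1.91 and 0.352 CPM in T-positive cells and 0.114, 0.468, 1.64 and 0 CPM in T-negative cells, higher in 4 of 4 embryos. The log2 fold change was 4.59 ± 1.73 (SE) and 2.91 without P1 embryo 3, with an unadjusted p of 0.023 and an adjusted p of 0.999 (edgeR quasi-likelihood F test, Benjamini-Hochberg; 0.070 to 1 over its alternatives). Snai1 showed another order of embryos. It had no count in the T-positive cells of P1 embryo 3 and was 99.96, 13.3 and 14.4 CPM in those of the other 3, against 0.228, 0.0779, 3.82 and 4.503 CPM in T-negative cells. Its log2 fold change was 2.57 ± 1.44 (SE), and 1.09 without embryo 2. P1 embryo 3, the highest for Zeb2, was the only one of the 4 with no Snai1 count in T-positive cells.

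Vim was 2.48, 40.2, 12.6 and 10.2 CPM in T-positive cells and 3.997, 3.51, 19 and 8.62 CPM in T-negative cells, so it was higher in 2 embryos and lower in 2. Its log2 fold change of 0.50 ± 0.91 (SE) turned to -0.30 without embryo 2. Zeb1 was no more than 3.23 CPM in any of the 8 sums and Snai2 had no count in T-positive cells. Of the 3 lists, 6 cadherins and catenins, 22 epithelial genes and 18 regulators, motility and matrix genes were tested and 0 were called in either direction, with median log2 fold changes of -0.11, -0.24 and 0.36.

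**Figure D3:**
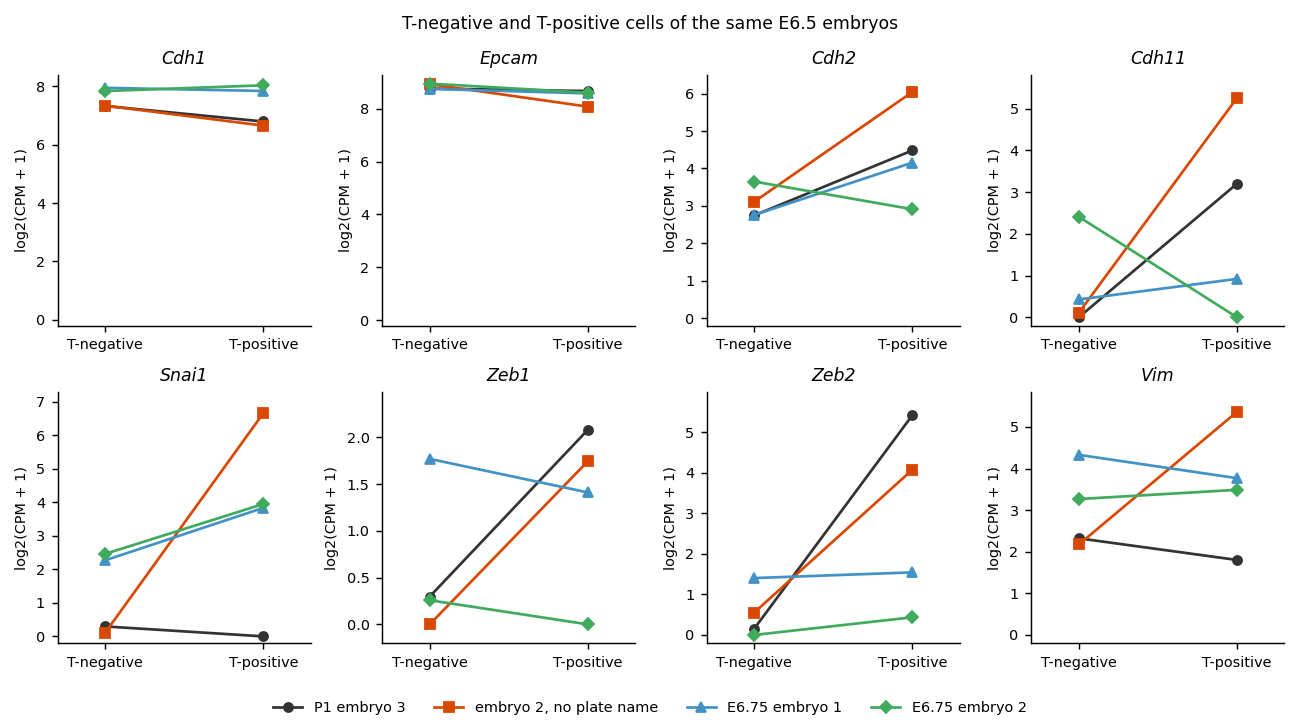
Levels as log2(CPM + 1) in the T-negative and T-positive cells of 4 E6.5 embryos, each embryo a line. The lines for Epcam all fall and those for Zeb2 all rise, while the line of embryo 2 without a plate name is the steepest rise for Cdh2, Cdh11, Snai1 and Vim.

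The 4 embryos also differed in their markers. The 13 streak markers, T among them, summed to 1139, 1741, 529 and 551 CPM in T-positive cells and to 420.0, 186.5, 213.4 and 269 CPM in T-negative cells. The 21 endoderm markers were as high in both kinds in P1 embryo 3, at 3258 and 3094 CPM in T-positive and T-negative cells. In embryo 2 without a plate name they were lower in T-positive cells, 2694 against 5048 CPM. In E6.75 embryo 2 they were higher in T-positive cells, 3239 against 1489 CPM. Their part in the values of the 4 embryos was not tested. Of the 54 T-positive cells 23 lay in a single cluster of 26 cells, from 2 embryos without a plate name, with 20 of the 21 endoderm markers above a mean log2 level of 1.

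Counted by cell, embryo 2 without a plate name stood apart. All of its 23 T-positive cells had counts of Cdh1, Cdh2, Epcam and Snai1, 21 had Vim, 20 had Zeb2, 19 had Cdh11 and 7 had Zeb1. Its 8 T-negative cells all had Cdh1, 5 had Cdh2, 4 had Vim and 1 each had Snai1, Zeb2 and Cdh11. So the epithelial and the mesenchymal cadherins were read in the same cells. In P1 embryo 3, by contrast, 5 of 8 T-positive cells had Cdh1, 2 had Cdh2, 3 had Zeb2 and 0 had Snai1. In E6.75 embryo 1, Cdh2 was found in 8 of 11 T-positive cells and in 19 of 43 T-negative cells, and Snai1 in 5 and 10. In E6.75 embryo 2, Cdh2 was found in 4 of 10 and 3 of 9, and Snai1 in 7 and 2.

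To set shares of cells side by side, each cell was thinned to 200000 counts, which left out 13 of the 721 cells, 5 of them T-positive. Cdh1 and Cdh2 were then found together in 45.9% of ICM cells (exact binomial 95% interval 35.8 to 56.3), in 0 of 23 E4.5 epiblast cells, which allows a share of up to 13.04% by the limit of 3 counts (exact upper limit 14.8%), and in 8.14% of E5.5 epiblast cells (5.11 to 12.2). The joint share was 32.5% of T-negative E6.5 cells (25.2 to 40.5) and 61.2% of T-positive cells (30 of 49; 46.2 to 74.8). Without thinning these shares were 52.5%, 0%, 10.4%, 39.9% and 66.7%, in the same order. The intervals cover counting error only, and cells of an embryo are not independent: over the 4 embryos with 3 or more T-positive cells the joint share ran from 0% to 95%, and without embryo 2 of no plate name it was 37.9% (11 of 29 cells).

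Cells with Cdh2 and no Cdh1 were rare. After thinning there were 6 of 98 in the ICM, 0 in the E5.5 epiblast, 1 of 8 in the E5.5 endoderm, 1 among T-negative and 1 of 49 among T-positive cells. Snai1 was found together with Cdh2 in 51.02% of T-positive cells (36.3 to 65.6) and in 4.55% of T-negative cells (1.85 to 9.14). The T-positive share ran from 0% to 95% over the 4 embryos and was 20.7% (6 of 29 cells; 7.99 to 39.7) without embryo 2 of no plate name. Snai1 itself was in 53.1% of ICM cells, 8.70% of epiblast cells at E4.5, 19.4% at E5.5, 8.44% of T-negative and 63.3% of T-positive cells at E6.5, the last 37.9% without that embryo. Vim was in 3.06% of ICM cells, 47.8% of epiblast cells at E4.5, 37.6% at E5.5, 37.01% of T-negative and 67.3% of T-positive cells, the last 48.3% without that embryo. Snai2 and Zeb2 had no count in any ICM cell, so the repressor counts of that class were those of Snai1 and, in 5 cells, Zeb1.

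**Figure D4:**
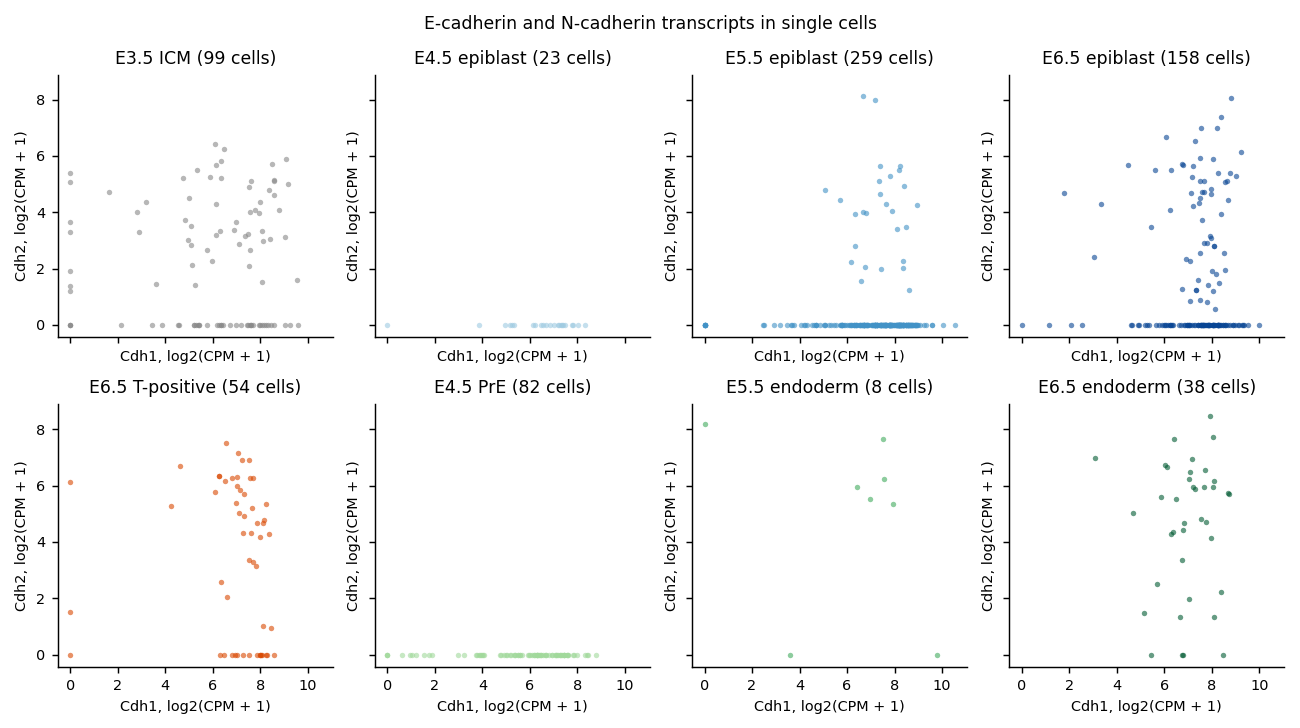
Cdh1 (x axis) against Cdh2 (y axis) in single cells as log2(CPM + 1), unthinned, 1 panel per class and 1 point per cell, with wells labelled double included. Cdh2 is at 0 in every cell of both E4.5 classes, and in the E6.5 panels most cells with Cdh2 also carry Cdh1.

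The level of Cdh2 was also set against that of Cdh1, both per kilobase. In the epiblast the median over sums was 0% at E4.5, 0.326% at E5.5 (0.106 to 5.06) and 2.88% in T-negative cells at E6.5 (0.927 to 15.7). In T-positive cells it was 11%, 37%, 4.18% and 1.42% in P1 embryo 3, embryo 2 without a plate name and E6.75 embryos 1 and 2. The ranges of T-negative and T-positive sums overlapped. In the ICM the median was 4.68%, with a range of 0.953 to 48.9.

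In the endoderm, at E4.5, PrE-like and epiblast-like cells of the same 5 embryos were compared, and the study's wider limit of 2 on the log2 fold change was used. By it 6.3% of the 10011 genes tested were higher in PrE-like cells and 2.52% lower, and of the 5 of the 9 genes tested 1 was higher and 0 lower, with a median log2 fold change of -0.47 beside 0.22 over all genes. Cdh2 and Zeb2 had no count in either class, where 69637315 counts were summed in the PrE.

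Snai1 was 20.5 and 3.94 CPM in the PrE-like cells of P1 embryos 1 and 2, and 32.9, 4.03 and 2.86 CPM in those of P2 embryos 3, 4 and 5. It was higher than in the epiblast of the same embryo in 5 of 5, by a log2 fold change of 4.40 ± 1.31 (SE; adjusted p = 0.048, edgeR quasi-likelihood F test, Benjamini-Hochberg). The call was lost without any 1 of the 5 embryos, with adjusted p values of 0.109, 0.0842, 0.0755, 0.1248 and 0.112 in the same order. Without the embryo as a block its log2 fold change was 2.89 (adjusted p = 0.197 by the same test).

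Epcam was 161.7, 78.1, 85.6, 56.9 and 120.5 CPM in PrE-like cells, against 426.3, 217.4, 214.1, 159.7 and 294.8 CPM in the epiblast. It was lower in 5 of 5 embryos by a log2 fold change of -1.41 ± 0.19 (SE; adjusted p = 0.0012, edgeR quasi-likelihood F test, Benjamini-Hochberg), which is under the limit of 2 in size. Cdh1 was 129.6, 67.4, 52.2, 116.6 and 73.9 CPM in PrE-like cells, also lower in 5 of 5 embryos, but its log2 fold change of -0.47 ± 0.27 (SE) did not pass the test (adjusted p = 0.27, by the same edgeR test). Vim was higher in 3 of 5 embryos and Zeb1 lower in 4 of 5, without passing the test. DESeq2 called Zeb1 as well (log2 fold change -4.23, adjusted p = 0.043).

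Cadherins outside the 9 split the classes. Cdh6 (K-cadherin) had no count in the E4.5 epiblast and 21.7 ± 13.2 CPM (SD, n = 5) in the PrE, at least 114.3-fold higher, while Cdh3 was 33.4 ± 13.9 CPM in the epiblast and 1.45 ± 1.85 CPM in the PrE. They were 1 higher and 1 lower of 7 cadherins and catenins tested, with a median log2 fold change of -0.082. Of 19 epithelial genes, 1 was higher and 3 were lower, with a median of 0.46: Krt8 was at 21.7 ± 22.1 CPM in the PrE and had no count in the epiblast, and Cldn4, the splicing factor Esrp1 and Grhl2 were lower there. Grhl2 was 131.9 ± 50.6 CPM in the epiblast and 18.6 ± 7.56 CPM in the PrE. Of 12 regulators, motility and matrix genes, 2 were higher and 3 lower, with a median of 0.79. The matrix protein Sparc was 326 ± 100.3 CPM in the epiblast and 3023 ± 463 CPM in the PrE, and Has2 was 1.09 ± 2.43 and 42.3 ± 24.4 CPM. Lef1, the receptor Fgfr1 and Fn1 were lower in the PrE, Fn1 at 49.7 ± 17.9 CPM against 256.6 ± 103.4 CPM.

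Between E4.5 PrE and E6.5 endoderm, Cdh2 appeared and Epcam rose. In this comparison 3.97% of the 10181 genes tested rose and 3.85% fell, and of the 5 of the 9 genes tested 2 rose and 0 fell, with a median log2 fold change of 0.92 beside -0.051 over all genes. Cdh2 was 12.2 CPM in the lowest of the 7 E6.5 sums, 39.5 CPM in the median and 83.8 CPM in the highest. The groups did not overlap, and the E6.5 mean of 47.6 ± 24.7 CPM (SD, n = 7) was at least 1083-fold above 3 counts over the E4.5 PrE (adjusted p = 9.5e-05, edgeR quasi-likelihood F test, Benjamini-Hochberg). In the 1 endoderm sum of E5.5, with 5 cells, Cdh2 was already 142.8 CPM, higher than in any other sum of the table, at least 3247-fold above the same limit and with no replicate to test it.

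Epcam went from 56.9 to 161.7 CPM at E4.5 to 145.8 CPM in the lowest, 273 CPM in the median and 597 CPM in the highest E6.5 sum. Of the 7, 6 lay above every E4.5 sum, and the log2 fold change was 1.74 ± 0.36 (SE; adjusted p = 0.0058, edgeR quasi-likelihood F test, Benjamini-Hochberg). The call was lost with sums of at least 5 cells (1.18, adjusted p = 0.082) and when only the embryos without a plate name stood for E6.5 (0.99, adjusted p = 0.14). Cdh1 went from 88 ± 33.4 CPM (SD, n = 5) to 162.2 ± 74.5 CPM (SD, n = 7), a log2 fold change of 0.92 ± 0.37 (SE) that did not pass the test (adjusted p = 0.16, by the same edgeR test). The lowest of its E6.5 sums was 56.5 CPM in P2 embryo 6. In that sum 9 markers of maternal stroma, blood and endothelium came to 846 CPM, against a median of 6.25 CPM. Of the 9, 4 had a count in the E6.5 endoderm and 5 had none. The stroma markers Col1a1 and Col3a1 had no count there, and Dcn was at most 1.325 CPM. The part of these markers in the Cdh1 value was not tested.

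Snai1 had a count in 2 of the 7 E6.5 sums, both titled E6.75, with 0.939 CPM in embryo 1 and 21.9 CPM in embryo 2. Its log2 fold change was -1.96 ± 1.63 (SE) over all 7 embryos and was not called. Without the embryos titled E6.75 no count was left in the 5 others, and Snai1 was called lower (adjusted p = 0.0073, edgeR quasi-likelihood F test, Benjamini-Hochberg). Zeb2 had counts in the same 2 sums, 5.40 and 14.1 CPM, and 5 of the 38 E6.5 endoderm-like cells had T at 10 CPM or more. Vim went from 13.7 to 57.7 CPM in the 5 PrE sums to a range of 0 to 63.3 CPM with a median of 3.37 CPM, and was called lower only when the embryos without a plate name stood for E6.5 (log2 fold change -4.52, adjusted p = 0.033 by the same test). Zeb1 and Snai2 had no count in the E6.5 endoderm, in 29031654 counts.

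The keratins led the epithelial genes that rose in the endoderm. Krt8 went from 21.7 ± 22.1 CPM (SD, n = 5) to 829.8 ± 273 CPM (SD, n = 7), its partner Krt18 from a mean of 14.2 to 738 CPM and the plakophilin Pkp2, a desmosome component, from 3.63 ± 2.90 to 42.9 ± 20.8 CPM. Of 21 epithelial genes tested 7 rose, 0 fell, and the median log2 fold change was 1.31. Beta-catenin (Ctnnb1) rose from 247.2 ± 48.2 to 542 ± 220.3 CPM and Cdh4 fell from 43.7 ± 29.4 to 0.199 ± 0.385 CPM, 1 each way of 7 cadherins and catenins, with a median of 0.46. Of 14 regulators, motility and matrix genes, Eomes rose from 55.6 ± 18.7 to 227.5 ± 95.2 CPM and Sparc fell from 3023 ± 463 to 304.5 ± 124.6 CPM, with a median of 0.66.

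Within E6.5 embryos the endoderm carried Cdh2 at a level above that of the epiblast in 6 of 7 embryos and Cdh1 and Epcam below it in 6 of 7. None of the 4 genes tested of the 9 was called, while 2.64% of the 9168 genes tested were higher in the endoderm and 1.68% lower. No member was called by DESeq2 either, and 1917 of all genes had an unadjusted p under 0.05, Cdh1 and Epcam among them. Over the 7 embryos Cdh2 was 5.77 to 63.8 CPM in the epiblast with a median of 15.5 CPM, and 12.2 to 83.8 CPM in the endoderm. The ranges overlapped, and the log2 fold change was 1.51 ± 0.78 (SE; adjusted p = 0.30, edgeR quasi-likelihood F test, Benjamini-Hochberg). The exception to the higher endoderm level was P2 embryo 6 with 63.8 CPM in the epiblast and 12.2 CPM in the endoderm. Of its 5 epiblast cells 2 had a Cdh2 count, the higher at 261.7 CPM. Its endoderm sum was the one with 846 CPM of maternal markers, whose part was not tested. Cdh1 was 147.7 to 312 CPM in the epiblast, with a median of 245.6 CPM, and 56.5 to 294 CPM in the endoderm, with a median of 178.1 CPM. Its log2 fold change was -0.67 ± 0.28 (SE; adjusted p = 0.20 by the same edgeR test), and that of Epcam was -0.54 ± 0.21 (SE; adjusted p = 0.16). In the 2 embryos titled E6.75 alone, Epcam had a log2 fold change of -1.24 and was called (adjusted p = 0.028). Vim, with no count in 2 of the 7 endoderm sums and 63.3 CPM in the highest, changed direction with the setting. The median log2 fold change of the 4 genes was -0.60, beside -0.23 over all genes.

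Cdh1 and Cdh2 were found together in 78.4% of thinned E6.5 endoderm cells (29 of 37; 61.8 to 90.2) and in 0 of 81 E4.5 PrE cells, which allows up to 3.70% by the limit of 3 counts (exact upper limit 4.45%). No endoderm cell of E6.5 had Cdh2 without Cdh1. Per kilobase Cdh2 made up 5.99% to 29.1% of Cdh1 over the 7 E6.5 endoderm sums, with a median of 17.7%, and 78.1% in the E5.5 endoderm sum. Of the epithelial genes compared within E6.5 embryos, 4 of 22 were higher in the endoderm and 0 lower, with a median of 0.36, among them the desmosome protein Dsp (43 ± 20.6 against 7.32 ± 11.8 CPM; SD, n = 7), Krt8 (829.8 ± 273 against 94.5 ± 64.1 CPM) and Krt18. Of 14 regulators, motility and matrix genes 2 were higher, Sparc and Net1, and 0 lower, with a median of 0.28, and of 4 cadherins and catenins 0 were called, with a median of 1.07.

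Since Snai1 and Zeb2 bind E-box motifs of the letters CAGGTG, the promoters of the 9 genes were read for them. The table of RefSeq promoters (GRCm38.p6) has entries for 4 of the 9 genes: Epcam, Snai1, Zeb2 and Vim. In the 250 bases before the start, CAGGTG or its reverse complement CACCTG occurs in 17.2% of 32851 promoters. Epcam holds it 2 times, the nearer 19 bases before the start, and Snai1 1 time. The 4 Zeb2 starts and Vim have no such letters in their windows. The promoters of Epcam, which fell from the ICM to E4.5 and rose in the endoderm, and of Snai1 are shown 5′ to 3′, with the motif in capitals. Both lie on the + strand, Epcam at chr17:87635729-87635978 and Snai1 at chr2:167537945-167538194.
Epcam: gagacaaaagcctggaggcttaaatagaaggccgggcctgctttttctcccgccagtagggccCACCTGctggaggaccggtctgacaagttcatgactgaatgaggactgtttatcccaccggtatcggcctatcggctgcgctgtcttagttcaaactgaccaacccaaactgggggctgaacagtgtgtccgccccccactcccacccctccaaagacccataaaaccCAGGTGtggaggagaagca
Snai1: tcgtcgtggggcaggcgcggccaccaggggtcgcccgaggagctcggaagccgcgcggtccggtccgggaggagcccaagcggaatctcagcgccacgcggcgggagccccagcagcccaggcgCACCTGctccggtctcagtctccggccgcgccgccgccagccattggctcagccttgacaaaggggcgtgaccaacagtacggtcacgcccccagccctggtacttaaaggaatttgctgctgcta

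The genes themselves were placed with the GENCODE vM21 annotation of GRCm38. Cdh1 spans chromosome 8, 106603351 to 106670246 on the + strand, and Cdh11 lies on the same chromosome at 102632095 to 102785642 on the - strand. Cdh2 spans chromosome 18, 16588877 to 16809246 (- strand), and Zeb1 chromosome 18, 5591860 to 5775467 (+). Epcam spans chromosome 17, 87635979 to 87651129 (+), Snai2 chromosome 16, 14705852 to 14709385 (+), and Snai1 chromosome 2, 167538195 to 167542814 (+). Zeb2 spans chromosome 2, 44983632 to 45117395 (-), and Vim chromosome 2, 13573927 to 13582826 (+). The exons of Zeb2 share 653 bases with its antisense gene Zeb2os, which has no row, so with a library that does not mark strand the counts of the pair cannot be told apart. Zeb1 shares exon bases with Gm10125, which had 0 counts.

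Over all 53 sums and 8407 genes with a mean of at least 10 CPM, the gene whose level followed that of Cdh2 most closely was Apoa1, an apolipoprotein of visceral endoderm (Spearman correlation 0.71), then Krt8 (0.70) and Cldn7 (0.70). For Cdh1 they were Rragd (0.72), Lin28b (0.71) and Fzd2 (0.71), and for Vim Cachd1 (0.64), Bcam (0.64) and Fndc4 (0.63). The sums share embryos and differ in depth and stage, so these values are a description.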

How the data were processed

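Single cells were sequenced by the authors as full-length cDNA libraries (Smart-seq2 within G&T-seq, Nextera XT, paired reads, no molecular identifiers). Per the labels, reads were trimmed with Trim Galore 0.4.3 and mapped with HISAT2 2.0.5 (both versions from the submitters' processing notes) to GRCm38, and the authors counted reads with a mapping quality of at least 20 per gene in SeqMonk. The deposited values are raw read counts for 721 cells that had passed the study's filters (at least 4000 genes, at most 10% mitochondrial reads, multiplets and trophoblast cells removed). Reads are not independent molecules, so intervals and limits from 0 counts cover counting error only.

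Cells held 66896 to 3792936 counts. They were grouped by stage from the labels and by embryo from the titles. The 9 E3.5 cells without an embryo number were taken as 1 embryo. Classes came from consensus k-means (8 clusters over all cells, 5 within E6.5, scikit-learn 1.9.0) with the 9 genes, the 3 gene lists and the streak markers left out. Of 622 cells after E3.5, 16 had markers that went against their cluster. No doublet caller was run, and wells that the authors labelled as double were removed in an alternative.

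Counts were summed per embryo and class (at least 3 cells) and tested with edgeR 4.0.16 (R 4.3.3): TMM, filterByExpr, quasi-likelihood F test, Benjamini-Hochberg over all genes tested. The study itself tested single cells with DESeq2. The 3 epiblast stage steps shared 1 fit of 4 groups, and they share groups with each other. Classes of the same embryo were compared with the embryo as a block, since both sums came from 1 animal. Scripts were tested on simulated data. For sums, CPM is counts per 1000000 counts of the sum, with the total scaled by its TMM factor over all sums. For single cells it is counts per 1000000 counts of the cell, without such scaling. Alternatives were DESeq2 1.42.0, RLE normalization, no filter on low counts, wells not labelled double, other sum sizes, other clusterings, other sets of E6.5 embryos, other T limits and, for groups of 2 to 5 embryos (the E4.5 classes and the T-positive embryos), leaving out each embryo in turn. Further ones were chosen after seeing the data. Cells whose markers go against their cluster, or the E3.5 cells without an embryo number, were left out. The E6.5-titled embryos without a plate name were merged with those on P1. Shares of T-positive cells were taken without each embryo. The 9 genes and the lists (8 cadherins and catenins, 23 epithelial genes, 23 regulators, motility and matrix genes, 22 of these with a row) were chosen with earlier results of these data known. All 9 genes were named, and of each list up to 3 genes called per direction, those with the largest log2 fold change. The 3 most alike genes were those of highest Spearman correlation over the sums.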

Additional observations from a re-analysis of the deposited data

Results flagged for a closer look

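Of 44 sets of 4 to 10 embryos with values above 0, 12 held an embryo that stood apart from all others by most of the range of its set (Dixon's rule at 95%). Chance flags about 1 in 20 such sets, and the rule assumes values spread evenly about a centre, which genes near 0 counts do not. In each of the 12 it was the highest embryo. For Cdh2 these were P8 embryo 5 in the ICM, at 35.68 CPM with the next at 18.23 CPM, and embryo 3 of P7.P4.P5 in the E5.5 epiblast, at 17.25 CPM with the next at 7.503 CPM. The same E5.5 embryo was the highest for Zeb2, at 0.232 CPM with the next at 0.09235 CPM. Snai1 stood apart in the E4.5 epiblast of P2 embryo 3 (6.796 CPM, next 1.688), in the T-positive cells of embryo 2 without a plate name (99.96 CPM, next 14.44) and in the E6.5 endoderm of E6.75 embryo 2 (21.88 CPM, next 0.9393). That last embryo was also the highest for Zeb2 in the E6.5 endoderm, at 14.14 CPM with the next at 5.401 CPM.

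The other 5 concern Snai2, Zeb1 and Cdh11. Snai2 was 12.93 CPM in the E4.5 epiblast of P1 embryo 2, where the other embryos had no count, 13.52 CPM in the E4.5 PrE of P1 embryo 1 (next 0.1889) and 0.4073 CPM in the E5.5 epiblast of P2.P3 embryo 1 (next 0.1444). Zeb1 was 18.13 CPM in the ICM of P9 embryo 9 (next 6.558), and Cdh11 was 4.353 CPM in the E6.5 endoderm of P3 embryo 8, alone above 0.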

How the results depend on the processing

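Of the values for single genes under alternatives, 589 kept their direction and their side of the threshold, 17 lost a call, 8 gained one and 7 turned. The causes were not tested. None of those that turned was called: Cdh1 from the ICM to E4.5 without P2 embryo 3 (0.0579; -0.2199 to 0.0579 over embryos left out) and without P2 embryo 5 (0.0128), Vim from E4.5 to E5.5 without P2 embryo 3 (-0.4854 to 0.1537 over embryos left out), Vim in T-positive cells without embryo 2 of no plate (-0.2964 to 0.9525), and Vim in E6.5 endoderm without the embryo as a block (0.5968) and on plates P1 to P3, which also leaves out the embryos titled E6.75 (0.1164). From E5.5 to E6.5 the 0 calls became 1 with DESeq2, 1 with sums of at least 5 cells and 2 with T-positive cells included, where Zeb2 joined Cdh2. For E4.5 PrE against epiblast the 1 call became 2 with DESeq2 and 0 without a filter, without double wells, with sums of at least 5 cells, without the embryo block and without any 1 embryo (0 to 0). E6.5 endoderm against epiblast gained 1 call in embryos without a plate name, and PrE to E6.5 endoderm fell from 2 to 1 with sums of at least 5 cells and rose to 3 on plates P1 to P3 and without E6.75 (Snai1 added) and in embryos without a plate name (Vim and Zeb2 added, Epcam lost). The 4 calls from the ICM to E4.5 became 5 without a filter (Snai2 added) and 3 without double wells, with sums of at least 5 cells and without P1 embryo 1 or 2 or P2 embryo 4 or 5. The block, that is the pairing by embryo, changed no other call among the 9 genes. T-positive cells on plates P1 to P3 could not be fitted, with 1 embryo.

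The number of all genes called moved by over 1.5 times in these cases: ICM to E4.5 from 2844 to 1387 and E4.5 to E5.5 from 812 to 2052 with only the pair in the fit, E5.5 to E6.5 from 1142 to 3021 without a filter, 1895 with at least 5 cells, and to a smaller number with only the E6.5 embryos without a plate name, T-positive cells from 1 to 18 with DESeq2, 12 without a filter and 6 without E6.75, PrE against epiblast from 883 to 1688 with DESeq2, 357 without double wells and 578 without P1 embryo 1 (also lower with at least 5 cells), E6.5 endoderm against epiblast from 396 to 1568 with DESeq2, 73 with at least 5 cells, 630 without a plate name and 663 with Ward clusters (also lower without E6.75), and PrE to E6.5 endoderm from 796 to 1350 with DESeq2. The joint Cdh1 and Cdh2 share in thinned T-positive cells was 58.5% to 66.7% under other thinning or without double wells and 37.9% to 73.2% over embryos left out. Under other thinning or without double wells it was 35.4% to 52.5% in the ICM, 28.7% to 39.9% in T-negative cells and 76.5% to 89.5% in the E6.5 endoderm. With 3 to 23 T-positive or E4.5 epiblast cells per sum, genes under a few CPM rest on single cells, and a level under that of 3 counts in a class was not detectable.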
